A study of Mus musculus with 3 samples.

Results

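The genes examined here are 33 mouse genes of thiol and peroxide metabolism: the transcription factor NRF2 (encoded by Nfe2l2) with its inhibitor Keap1, NRF2-driven enzymes, glutathione synthesis, thioredoxins, peroxiredoxins, glutathione peroxidases, superoxide dismutases, glutaredoxins, the epoxide hydrolase Ephx1 and the selenium-binding protein Selenbp1. They are listed by name, with no threshold on a measured value, although earlier results of these data were known when the list was made. Their probes were found by RefSeq accession. All 33 had a probe, 41 probes in all, and 32 of the 33 were well above background on every array, against 11810 of 20142 named genes in the series. The exception was Gpx3, which was above background on no array.

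Total RNA came from 3T3-L1 adipocytes, which form when this mouse preadipocyte line is induced to differentiate, collected 2, 8 and 20 days after induction. Day 2 is labelled as just after differentiation and day 20 as a prolonged culture, and the series asks how gene expression changes as the fat cells enlarge. There was 1 Agilent 1-colour array per day, so no replicate exists, no difference could be tested, and each difference below compares 1 array with another. All 3 groups were the same line cultured after induction, and no array of uninduced cells was analysed here.

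Levels are log2 processed intensities minus the 75th percentile of the array, and differences are differences of these levels, so a difference of 1 is 2-fold. The value beside a difference is a technical SD, taken from probes printed 10 times on an array, which holds the spread between spots and not that between cultures. For the members it lay between 0.065 and 0.104. On the arrays, 55.3% to 56.9% of spots were well above background and 0 were saturated. Markers of the labelled cell type were present: 12 of 12 adipocyte markers were above background on each day. Adipoq, encoding the hormone adiponectin, stood at 5.07, 8.90 and 8.18 on days 2, 8 and 20. Fabp4, the fatty acid carrier, was at 8.4, 8.35 and 7.64, and the preadipocyte gene Dlk1 at 5.47, 5.02 and 6.49. Of 8 preadipocyte and fibroblast markers, 7, 8 and 8 were above background on the successive days, so detection alone does not separate the cell types. Of 7 macrophage markers with a probe, 3 were above background on each day, and Adgre1, Ptprc, Lyz2 and Mrc1 were not. The 3 were Itgam (3.05, 3.3 and 2.17), Cd14 (-2.92, 0.05 and 0.37) and Csf1r (-0.81, -0.82 and -1.36).

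NRF2 is held in the cytosol and sent for degradation by KEAP1. When oxidants or electrophiles modify cysteines of KEAP1, NRF2 builds up, enters the nucleus, pairs with small MAF proteins and binds antioxidant response elements in its target genes. Peroxiredoxins and glutathione peroxidases reduce peroxides, the first drawing electrons from thioredoxin and the second from glutathione, while superoxide dismutases make the hydrogen peroxide on which both act. In adipocytes, hydrogen peroxide also takes part in insulin signalling, and mitochondria and NADPH oxidases are sources of it.

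From day 2 to day 8 the redox genes moved apart in both directions. Past 2-fold, 7 of the 32 measured members were higher on day 8 (Selenbp1, Ephx1, Sod3, Hmox1, Txnrd2, Gpx8 and Prdx5), a direction taken by 13.8% of the 12044 genes measured. On the lower side were 4 members (Nqo1, Prdx1, Glrx5 and Glrx3), against 12.9% of genes. In either direction 26.8% of genes passed. The median difference of the members was -0.08, and that of all genes -0.06. The members' share thus lay above the background on the higher side and near it on the lower side, with no test of either.

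From day 8 to day 20, Hmox1 and Sod3 were the 2 members past 2-fold on the higher side, and 0 passed on the lower side. Among 12321 genes the shares were 3.58% higher and 1.74% lower, 5.32% together. The median was -0.04 for the members and -0.05 for all genes. This step depends on how the arrays are scaled: with spike-in scaling the all-gene median was 0.61 in place of -0.05, 7 members were past 2-fold on the higher side (Srxn1, Gclc, Gclm, Gsr and Ephx1 in addition) and 0 on the lower. The split of all genes was 441 higher and 214 lower in the main values, 620 and 127 with cyclic loess (median 0.10) and 2061 and 21 with spike-in scaling. Spike-in scaling adds 0.66 to the difference of each gene in this step, and 0.71 between days 2 and 20, so the sign of any smaller negative difference rests on the scaling. Small differences between days 8 and 20 are therefore given as positions relative to the bulk of genes.

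**Figure D1:**
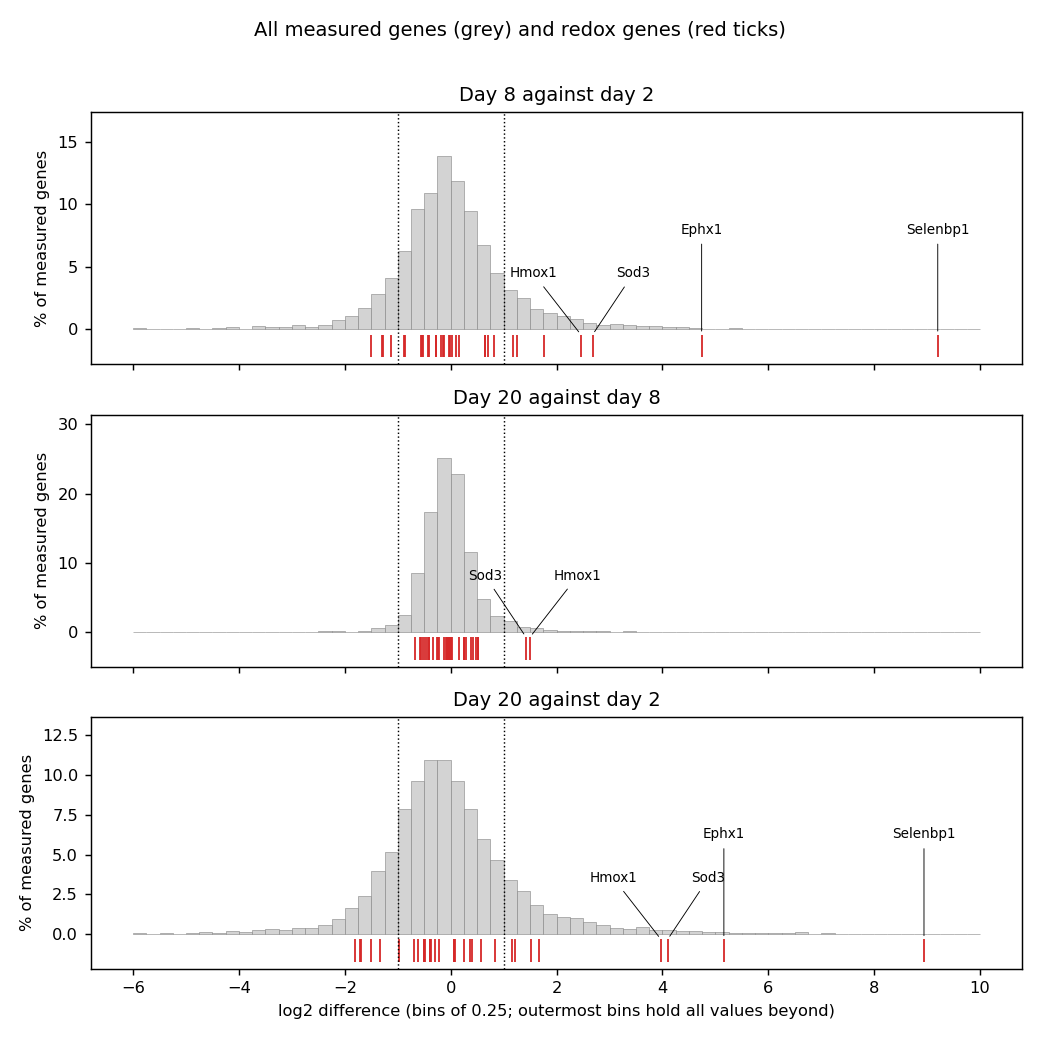
Distribution of the log2 differences of all measured genes (grey bars, percent of genes per bin) with the 32 measured redox genes as red ticks under the axis, for day 8 against day 2, day 20 against day 8 and day 20 against day 2. Dotted lines mark 2-fold, and 7, 2 and 8 redox genes lie past it on the higher side and 4, 0 and 5 on the lower side.

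Between day 2 and day 20, 8 members passed 2-fold on the higher side and 5 on the lower, against 15.5% and 17.0% of 11888 genes (32.4% in either direction). Srxn1 and Gclm joined the higher group and Prdx5 left it, and Txn1 joined the lower group. With spike-in scaling the split was 12 higher and 2 lower, and with quantile normalization or cyclic loess 10 and 4. All genes split into 1840 higher and 2017 lower in the main values, 2432 and 1308 with cyclic loess and 3899 and 691 with spike-in scaling, where their median was 0.57 in place of -0.14 (0.14 with cyclic loess). The comparison shares an array with each of the other comparisons and is not independent of them.

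The NRF2 sensor itself lay near its day 2 level on day 8. Nfe2l2 stood at 2.78, 2.75 and 3.04 on the successive days, and Keap1 was at 1.73, 1.89 and 2.14. Their differences were -0.02 and 0.16 in the first step, the value of -0.02 turning to between 0.03 and 0.17 under the other scalings. In the second step they were 0.29 and 0.25, or 0.95 and 0.91 with spike-in scaling. Between days 2 and 20 Nfe2l2 was at 0.26 and Keap1 at 0.40, or 0.97 and 1.12 with spike-in scaling, where Keap1 passed 2-fold. NRF2 is controlled mainly at the protein level, which arrays do not measure.

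Hmox1, Srxn1 and Nqo1, commonly used reporters of NRF2 activity, went in different directions. Hmox1 encodes heme oxygenase 1, which breaks heme down to biliverdin, iron and carbon monoxide. Its levels were 2.25, 4.71 and 6.22 in time order, from processed intensities of 3149, 16690 and 68920. It was 5.52-fold higher on day 8 than on day 2 (2.46, SD 0.072) and 2.83-fold higher again on day 20 (1.5, SD 0.073), 15.6-fold over the whole course. Its other probe had differences of 2.70 and 1.58. Among all genes, Hmox1 stood at rank 415 of 12044 for the first step and rank 164 of 12321 for the second, counted from the largest difference.

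Srxn1 encodes sulfiredoxin, which repairs overoxidized peroxiredoxins. It was at 2.93, 3.64 and 4.16, higher at each step by less than 2-fold (0.70 and 0.52) and 2.34-fold higher on day 20 than on day 2. Nqo1, the NADPH quinone reductase, was at 1.58 on day 2 and then at 0.08 and 0.09. It was lower on day 8 by 2.84-fold (-1.51, SD 0.075), and day 20 differed from day 8 by 0.01. The difference of Nqo1 between days 2 and 20 was -1.5, and -0.79 with spike-in scaling.

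The antioxidant response element was looked for in the promoters of the members, as a description of their sequence. RefSeq promoter windows on build GRCm38.p6, reaching from 250 bases before to 50 bases after the transcript start, were matched for 28 of the 33 members. Hmox1, Gclc, Gsr, Prdx6 and Sod3 were not matched, so their promoters were not searched. The core TGACNNNGC, searched on both strands, was in a promoter of 6 of the 28 (Nfe2l2, Srxn1, Gclm, Txnrd1, Prdx1 and Sod1), against 14.0% of 27025 genes in the table. Elements outside these windows were not searched for, so a member without a match may still hold one. The stricter TGANTCAGC, which was chosen after the sequences had been seen and overlaps the first motif where its N is C, was in 2 of the 28 (Srxn1 and Prdx1), against 1.37% of all genes. Srxn1, Gclm and Prdx1 are the members that hold a match and were at least 2-fold apart between days 2 and 20, with differences of 1.22, 1.16 and -1.70 (Prdx1 at -0.99 with spike-in scaling, just under 2-fold, and Gclm at 0.95 with normexp background correction), so their 250 bases before the start are shown, 5′ to 3′ on the strand of the gene, with the matches in capitals.
Srxn1, chr2:152105274-152105523, plus strand: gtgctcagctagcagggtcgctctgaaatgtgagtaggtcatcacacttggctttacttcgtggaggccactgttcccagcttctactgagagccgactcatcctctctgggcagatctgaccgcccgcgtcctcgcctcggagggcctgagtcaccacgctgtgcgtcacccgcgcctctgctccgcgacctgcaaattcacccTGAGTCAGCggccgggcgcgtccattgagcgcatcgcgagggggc
Gclm, chr3:122245307-122245556, plus strand: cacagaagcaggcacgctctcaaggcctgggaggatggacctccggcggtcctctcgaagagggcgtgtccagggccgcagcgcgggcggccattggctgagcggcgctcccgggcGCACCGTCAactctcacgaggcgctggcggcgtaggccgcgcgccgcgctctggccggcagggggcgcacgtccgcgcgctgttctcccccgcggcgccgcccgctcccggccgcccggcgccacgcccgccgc
Prdx1, chr4:116685349-116685598, plus strand: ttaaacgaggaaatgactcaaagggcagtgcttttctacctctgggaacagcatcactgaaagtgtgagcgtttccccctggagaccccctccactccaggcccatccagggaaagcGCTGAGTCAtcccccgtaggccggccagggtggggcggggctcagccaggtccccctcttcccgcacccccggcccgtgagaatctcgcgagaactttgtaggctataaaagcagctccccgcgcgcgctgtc
The Srxn1 match tgagtcagc starts 45 bases before the start of the transcript, and a further TGACNNNGC match of that gene lies after the start and is not shown. The matches of Gclm and Prdx1 lie on the opposite strand, where they read tgacggtgc and tgactcagc. Of the 3 genes, the pair with the stricter match, Srxn1 and Prdx1, differed in opposite directions over the time course.

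Among the 4 members that make or reduce glutathione (Gclc, Gclm, Gss and Gsr), Gclm had the largest difference in the first step and between days 2 and 20. It encodes the modifier subunit of glutamate-cysteine ligase, the enzyme of the rate-limiting step of glutathione synthesis, and was at -1.72, -1.07 and -0.56 on days 2, 8 and 20. It was 1.57-fold higher on day 8, 1.42-fold higher again on day 20 and 2.23-fold higher over the course (1.16, SD 0.087). The catalytic subunit Gclc did not follow the same course: it was at 0.59, 0.18 and 0.66, lower on day 8 by 0.41 and within 0.06 of day 2 on day 20, but 0.25 above it by cyclic loess and 0.78 by spike-in scaling. Gss, glutathione synthetase, was at 1.01, 0.84 and 0.79. Gsr, which returns oxidized glutathione to its reduced form, was at 2.86, 2.83 and 3.22, and its other probe gave -0.03 and 0.34 for the steps in which the used probe gave -0.03 and 0.39.

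The cytosolic and mitochondrial thioredoxin reductases parted. Txnrd2, the mitochondrial enzyme, was at 1.52, 3.28 and 3.19 in time order and was 3.38-fold higher on day 8 than on day 2 (1.76, SD 0.07). Txnrd1, the cytosolic enzyme and an NRF2 target, was at 2.31, 1.43 and 1.68, lower on day 8 by 1.83-fold (-0.88, SD 0.076). These are opposite differences of 2 probes on the same pair of arrays, and they kept their signs in the first step under all 3 other scalings. Their substrates did not divide in the same way. Txn1, cytosolic thioredoxin, was at 5.59, 4.73 and 4.26, reaching 2.52-fold lower on day 20 than on day 2, a difference of -1.34 that shrank to between -0.92 and -0.62 under the other scalings. Txn2, mitochondrial thioredoxin, was at 6.02, 5.88 and 5.65, and its differences of -0.14 and -0.23 were above 0 with cyclic loess, the second also with quantile and spike-in scaling.

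Of the 6 peroxiredoxins, Prdx1 was at least 2-fold lower on day 8 and Prdx5 at least 2-fold higher. Prdx1, a cytosolic enzyme, was at 6.59, 5.29 and 4.88, which is 2.46-fold lower on day 8 than on day 2 (-1.3, SD 0.065). Its other probe was at -2.72 for the same step, a larger difference in the same direction, and at 0.26 for day 20 against day 8, where the used probe was at -0.41. Between days 2 and 20 Prdx1 was at -1.70, or between -1.25 and -0.99 under the other scalings. Prdx5, found in mitochondria, peroxisomes and cytosol, was at 4.33, 5.51 and 5.18, 2.26-fold higher on day 8 (1.18, SD 0.067). It was 1.80-fold above day 2 on day 20, and past 2-fold there under the 3 other scalings, at 1.3 to 1.56.

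The other peroxiredoxins stayed under 2-fold in each comparison. Prdx3, the mitochondrial form, was at 4.76, 4.20 and 3.79, and its difference between days 2 and 20 of -0.97 (1.96-fold) was the closest to the threshold. Under the other scalings this difference of Prdx3 lay between -0.61 and -0.26. Prdx4, which works in the endoplasmic reticulum during protein folding, was at 3.77, 3.24 and 3.27. Prdx2 was at 6.06, 5.94 and 5.36, and Prdx6, which also has phospholipase activity, at 5.0, 4.72 and 4.71. Between days 2 and 20, Prdx2 and Prdx4 turned to 0.01 and 0.21 with spike-in scaling. Prdx6 was at -0.29 there, but at 0.15 to 0.42 under the other scalings. The 2 brighter of the other 3 Prdx6 probes gave -0.21 and -0.11 in the first step, beside -0.27 for the used probe. A near-identical gene, Prdx6b, was not analysed here, so its part in the signal is uncertain.

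The dividing-cell markers moved with the first step, beside Nqo1, Prdx1, Glrx3 and Glrx5: 6 of 6 (Mki67, Top2a, Ccnb1, Cdk1, Rrm2 and Aurka) were lower on day 8 than on day 2, by between -5.66 and -2.86. Their summed level, on a linear scale relative to the 75th percentile, was 96.8, 2.93 and 4.73 on days 2, 8 and 20. Of the 12 adipocyte markers, 6 passed 2-fold on the higher side on day 8 and 0 on the lower, beside the redox genes that were higher. Among all genes, the shares for this step were 13.8% higher and 12.9% lower. The part of either list in the differences of the redox genes was not tested.

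**Figure D2:**
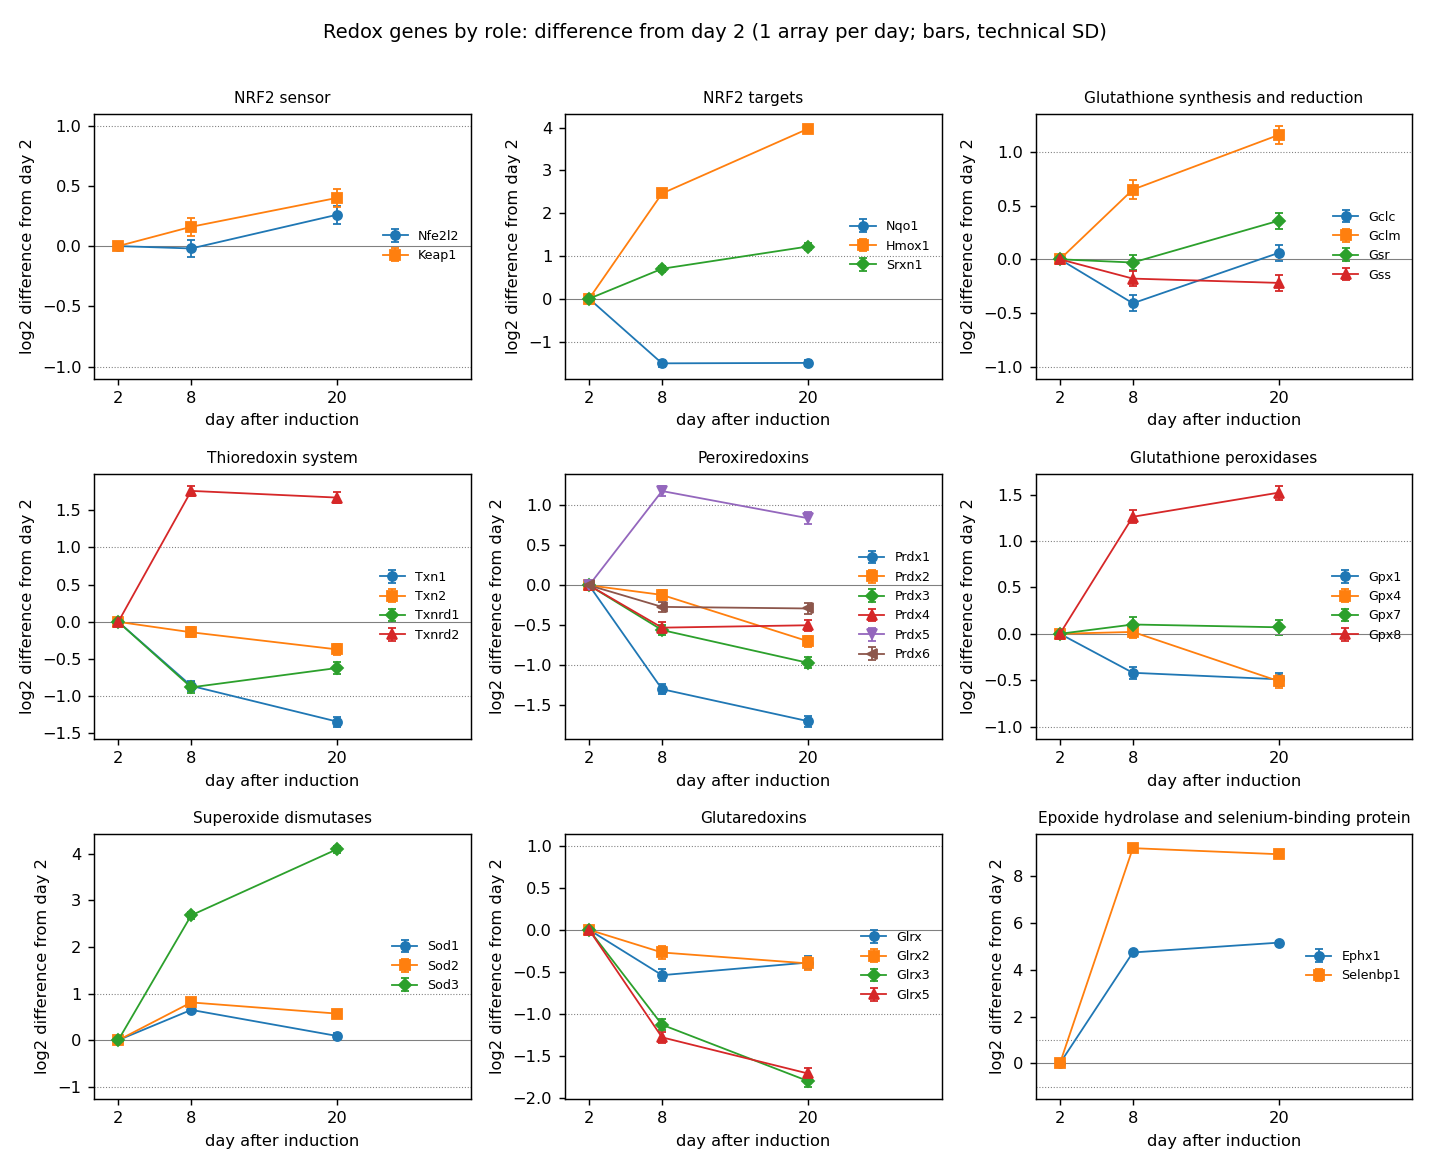
Log2 difference from day 2 of the 32 measured redox genes on days 8 and 20, in 9 panels by role, with 1 array per day, the technical SD as bars and dotted lines at 2-fold; the vertical scale differs between panels. Hmox1 and Sod3 lie higher at each step, Txnrd2 and Txnrd1 part on day 8, and all 4 glutaredoxins lie below 0 on both days, although Glrx and Glrx2 lay above 0 on day 20 with spike-in scaling.

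Glutathione peroxidases were mostly level. Gpx8, an enzyme of the endoplasmic reticulum, was the exception: it was at 2.76, 4.02 and 4.27, 2.40-fold higher on day 8 than on day 2 (1.26, SD 0.072) and 2.86-fold higher on day 20. Gpx7, its neighbour in function in the same compartment, was at -1.09, -0.99 and -1.02, within 0.10 of day 2 on both later days (0.78 on day 20 with spike-in scaling). Gpx4, which reduces lipid hydroperoxides in membranes and guards against ferroptosis, was at 7.27, 7.29 and 6.76. Its difference of -0.53 between days 8 and 20 was -0.02 with quantile normalization and 0.13 with spike-in scaling. Gpx1, the cytosolic selenoenzyme, was at 5.56, 5.13 and 5.06. Gpx3, the secreted peroxidase of plasma, gave readings of -7.74, -7.75 and -7.86, not well above background, and therefore has no difference.

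Among the superoxide dismutases, the extracellular form stood apart. Sod3 was at -0.37, 2.31 and 3.73 in time order, from intensities of 513.8, 3157 and 12300. It was 6.40-fold higher on day 8 than on day 2 (2.68, SD 0.076) and 2.67-fold higher again on day 20 (1.42, SD 0.076), 17.1-fold in all. Its rank was 353 of 12044 genes in the first step and 188 of 12321 in the second. Sod1, the cytosolic copper and zinc enzyme, was at 7.36, 8.01 and 7.45, 1.57-fold higher on day 8. On day 20 it was within 0.09 of day 2 in the main values, but 0.69 to 0.82 above it under the 3 other scalings. Sod2, the mitochondrial manganese enzyme, was at 5.68, 6.49 and 6.26, 1.75-fold higher on day 8. Between days 2 and 20, Sod2 was at 0.57, and past 2-fold under the other scalings (1.14 to 1.29).

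The glutaredoxins, which reduce mixed disulfides of proteins with glutathione or handle iron-sulfur clusters, were all lower on day 8 than on day 2. Glrx5, needed for mitochondrial iron-sulfur cluster assembly, was at 6.24, 4.96 and 4.53, 2.42-fold lower on day 8 (-1.28, SD 0.065). Glrx3, a cytosolic carrier of such clusters, was at 6.30, 5.18 and 4.51. It was 2.19-fold lower on day 8 (-1.13, SD 0.065), but -0.92 with quantile normalization and -0.94 with cyclic loess, under 2-fold. Between days 2 and 20 Glrx5 was 3.28-fold lower and Glrx3 3.47-fold lower, at -1.71 and -1.80. Under the other scalings Glrx5 lay between -1.29 and -1.0 and Glrx3 between -1.35 and -1.08. Glrx, the cytosolic dithiol enzyme, was at 2.98, 2.44 and 2.60, and Glrx2 at 2.30, 2.02 and 1.89. The pair whose differences passed 2-fold are the monothiol glutaredoxins linked to iron-sulfur clusters.

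Ephx1 and Selenbp1 had the largest differences of the set. Ephx1, the microsomal epoxide hydrolase, was at 0.28, 5.02 and 5.44 in time order, with intensities of 805.2, 20680 and 40230. It was 26.7-fold higher on day 8 (4.74, SD 0.071), at rank 75 of 12044 genes, and a further 1.33-fold higher on day 20. The other Ephx1 probe gave 3.76 and 0.48. Selenbp1, which oxidizes methanethiol, was at -2.86, 6.34 and 6.08, with intensities of 91.32, 51530 and 62920. Day 8 exceeded day 2 by 9.2 (SD 0.101; 8.51 with normexp), and day 20 lay at -0.26 of day 8. Selenbp2 is a close paralogue of Selenbp1 that was not analysed here, so which of the pair gave the signal is uncertain.

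The members followed 4 courses when the sign of each step was taken in the main values. Lower at both steps were 11 genes, among them all but 2 of the peroxiredoxins, Txn1, Txn2, Glrx2, Glrx3 and Glrx5. Higher at both were 7, namely Keap1, Hmox1, Srxn1, Gclm, Gpx8, Sod3 and Ephx1. Higher and then lower were 7 (Txnrd2, Prdx5, Gpx4, Gpx7, Sod1, Sod2 and Selenbp1), and lower and then higher another 7 (Nfe2l2, Nqo1, Gclc, Gsr, Txnrd1, Prdx4 and Glrx). The sign of the second step is that of the main scaling, relative to the bulk of genes. Of the 18 members lower in the first step, 4 changed sign under another scaling, and of the 18 lower in the second, 17 did. Some signs rest on differences smaller than their technical SD, such as Nfe2l2 at -0.02 in the first step and Nqo1 at 0.01 in the second.

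**Figure D3:**
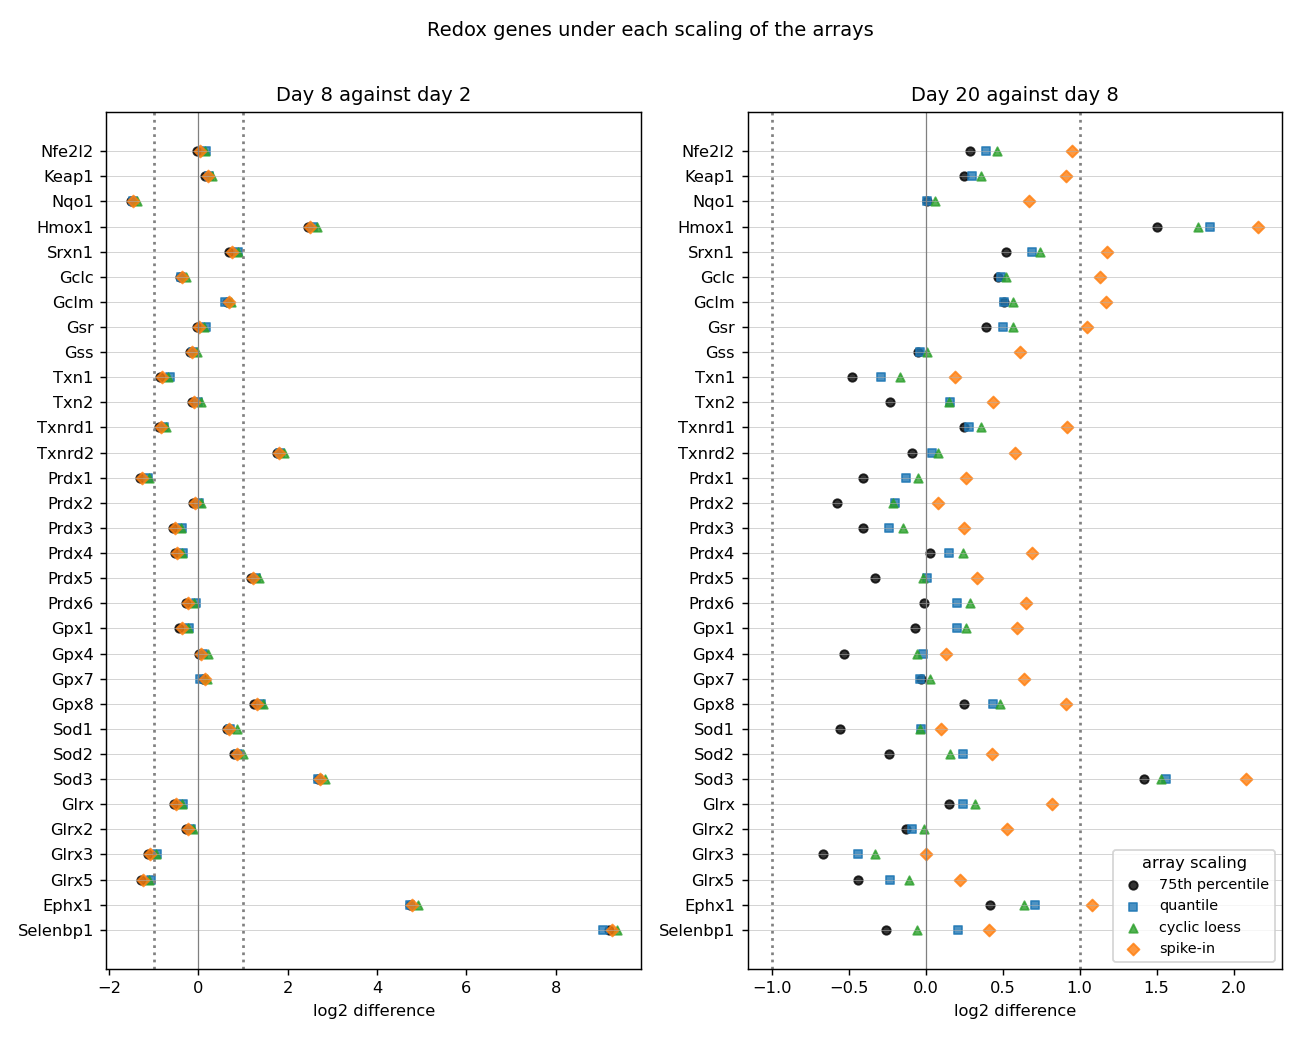
Log2 difference of each of the 32 measured redox genes for day 8 against day 2 (left) and day 20 against day 8 (right) under 4 scalings of the arrays: 75th percentile, quantile, cyclic loess and spike-in. In the first step the scalings lie closer together than in the second, though many values differ between them by more than the technical SD. In the second step spike-in values lie to the right of the others, with Hmox1 and Sod3 past the dotted 2-fold line under each scaling.

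The wider pathway was described with 78 related genes in 8 lists, of which 77 had a probe. Of 66 measured on days 2 and 8, 12 passed 2-fold on the higher side and 7 on the lower, against 13.8% and 12.9% of all genes. The related genes' share thus lay somewhat above that of all genes on the higher side and somewhat below it on the lower, with no test of either. Their median was 0.15, against -0.06 for all genes. The 5 largest on the higher side were Slc40a1, the iron exporter ferroportin (3.47), Maff, a small MAF partner of NRF2 (3.24), Txnip, the inhibitor of thioredoxin (3.08), Oplah, an enzyme of the glutathione cycle (2.77), and Aox1, aldehyde oxidase (2.53). On the lower side were Blvra, biliverdin reductase (-1.67), Slc3a2, the heavy chain of the cystine transporter (-1.51), Cbr3, a carbonyl reductase (-1.44), Chac1, which degrades glutathione (-1.26), and Abcc4, an export pump (-1.19). Slc7a11, the light chain of the cystine transporter and an NRF2 target, was above background on day 2 alone and at least 3.60-fold lower on day 8. As bounds, Ggt7 was at least 3.30-fold lower on day 8 and Ggt5, a gamma-glutamyltransferase, at least 2.49-fold higher.

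Txnip and Txn1 moved in opposite ways. Txnip was at 1.6, 4.68 and 4.52 in time order, 8.44-fold higher on day 8 (SD 0.07), while Txn1 was 1.81-fold lower. Both signs held under the other scalings in the first step. Genes of NADPH supply had 0 of 9 measured members past 2-fold in either direction on day 8, with differences between -0.88 and 0.72. Of all genes, 13.8% were higher and 12.9% lower past 2-fold in this step, and no list here was tested against these shares. Methionine sulfoxide repair had 2 of 4 past 2-fold on the higher side on day 8, with Msra and Msrb1 at 2.47 and 1.16. Of the sources of peroxide and superoxide with catalase, 3 of 7 passed 2-fold on the higher side and 0 on the lower. The median of that list was -0.02, and Xdh, at -0.99, was just short of 2-fold lower. Catalase (Cat) itself, which removes hydrogen peroxide in peroxisomes, was at 0.64, 2.29 and 2.02, 3.14-fold higher on day 8.

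Between days 8 and 20, 3 of 67 related genes passed 2-fold, all on the higher side, near the 3.58% of all genes: Ggt5 at 1.32, Bach2, a repressor that competes with NRF2, at 1.1, and Ero1b, an oxidase of the endoplasmic reticulum, at 1.06. All 3 were dim, with technical SDs of 0.223, 0.239 and 0.135, and with normexp they were at 0.46, 0.02 and 0.49. With spike-in scaling, 17 related genes were higher and 0 lower, where 16.7% of all genes were higher. Between days 2 and 20 the related genes had 11 higher and 5 lower of 66 (32 and 2 with spike-in scaling, 21 and 2 with quantile, 25 and 2 with cyclic loess). Of all genes, 15.5% were higher and 17.0% lower, and 32.8% and 5.81% with spike-in scaling. With quantile normalization the shares were 17.1% and 13.6%, and with cyclic loess 20.5% and 11%. All genes thus moved toward the higher side under each of the 3 other scalings. The related genes' higher share was near that of all genes in the main values and above it under the other scalings. Their lower share was below that of all genes under each scaling, and neither difference was tested. Slc40a1 (3.91), Maff (3.85), Txnip (2.92), Oplah (2.70) and Msra (2.45) led on the higher side. Blvra (-2.30), Cbr3 (-1.92), Slc3a2 (-1.39), Txnl4a (-1.25) and Taldo1 (-1.20) were the lower ones. Hmox1 and Blvra, which act one after the other in heme breakdown, differed in opposite directions, at 3.97 and -2.30 between days 2 and 20. Slc3a2, Txnl4a and Taldo1 did not reach 2-fold with any of the 3 other scalings, lying between -0.97 and -0.67, -0.92 and -0.54, and -0.63 and -0.48. As bounds, Slc7a11 was at least 4.0-fold lower and Ggt5 at least 6.21-fold higher on day 20 than on day 2.

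**Figure D4:**
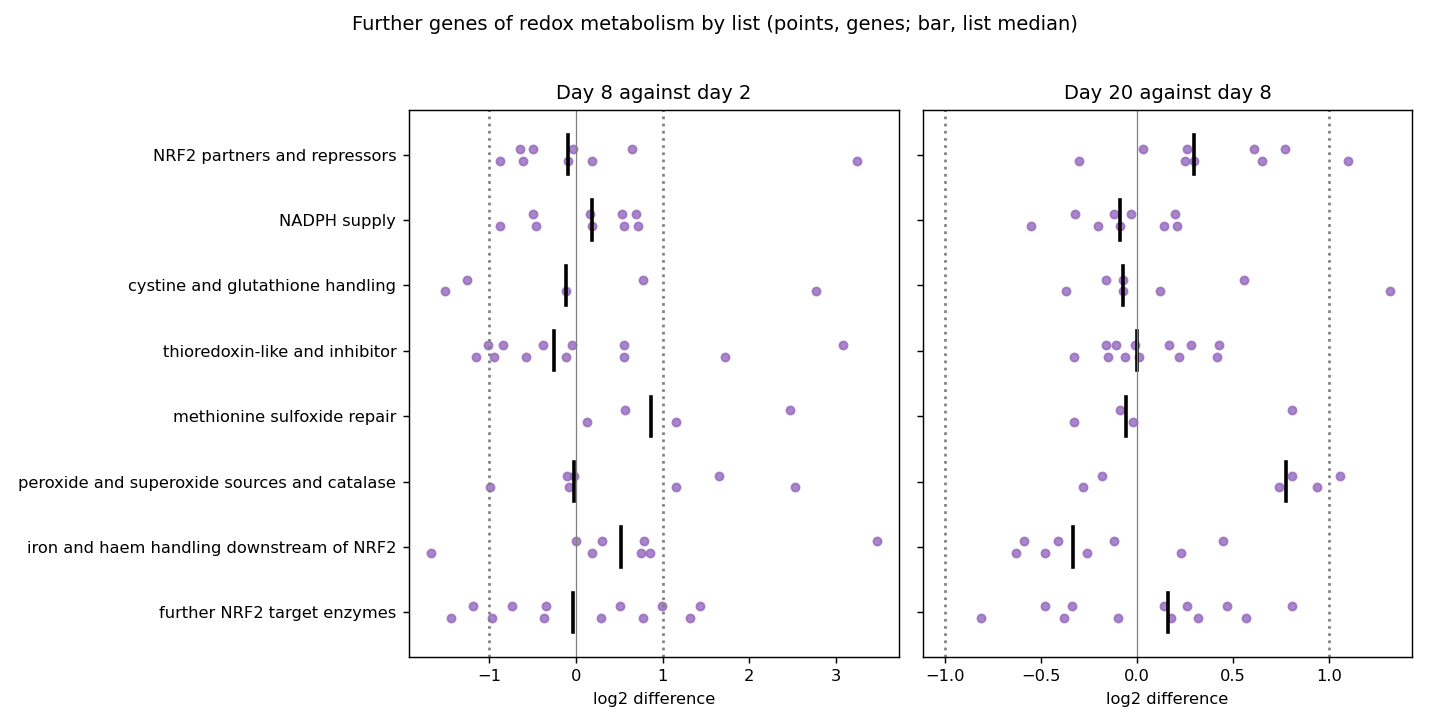
Log2 differences of the related genes by list for day 8 against day 2 (left) and day 20 against day 8 (right), with each measured gene as a point, the list median as a bar and dotted lines at 2-fold; the horizontal scale differs between panels. In the first panel 12 genes lie past 2-fold on the higher side and 7 on the lower, and in the second 3 and 0.

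Markers of other cell states also differed between days 8 and 20. Past 2-fold, 3.58% of all genes were higher on day 20 than on day 8 and 1.74% lower. Of the 8 preadipocyte and fibroblast markers, 3 (Dlk1, Ly6a and Thy1) were past 2-fold on the higher side on day 20 and Cd34 on the lower side. Their summed level was 88.9, 121 and 217 on days 2, 8 and 20, that of the adipocyte markers 849, 1890 and 1310, and that of the macrophage markers 9.02, 11.5 and 6.22. Of 6 endothelial markers, 2, 3 and 2 were above background, with summed levels of 4.66, 4.3 and 2.77. All these sums are in the main scaling, and spike-in scaling adds 0.66 to each difference between days 8 and 20. The adipocyte and endothelial sums, lower on day 20 than on day 8, would not be lower with it. In bulk RNA, fewer cells of a type and less RNA per cell cannot be told apart. The part of such markers in the differences of Hmox1 and Sod3 between days 8 and 20 was not tested.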

How the data were processed

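Scanner files of the 3 arrays of 3T3-L1 total RNA, 1 per day, were read. Each deposited intensity is the processed signal of a spot, which the submitters' processing notes credit to Agilent Feature Extraction (version 10.7.1.1). A deposited table also gives log2 values, which on each array differed from the log2 processed intensity by 1 constant, within 0.01 for 100% of probes, and which served as an alternative (column medians -4.80, -4.69 and -4.89). The genome build named in the file headers is that of the array design, so no probe coordinates are given.

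Control and outlier spots were left out and spots of a probe averaged. Levels were log2 processed intensity minus the 75th percentile of the array. Probes were named by RefSeq accession without version (26581 of 39429). Where a gene had several probes, the one with the highest mean level was used. Differences were measured for probes above background on both days and called at 2-fold. Where 1 array was not above background, a bound was taken, with the dim array set to its own reading or to its lowest probe above background, whichever was brighter. Technical SDs came from probes printed 10 times. The call was tested on simulated data whose changes lay clear of the threshold with low noise, which cannot show how it fares near 2-fold. All 33 members were named, and of the related genes the 5 with the largest differences past 2-fold in each direction. The members and lists were chosen with earlier results of these data known. Alternatives were quantile normalization, cyclic loess, spike-in scaling, normexp (offset 50, on median signals since no mean signal was used here; limma 3.58.1), no filter on dim probes, the mean of probes and the series table.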

Additional observations from a re-analysis of the deposited data

How the results depend on the processing

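The counts of redox genes past 2-fold between days 2 and 8 stayed within 1.5 times of the reported counts under all 7 alternatives. With spike-in scaling, 7 in place of 2 members were higher on day 20 than on day 8, and 2 in place of 5 were lower on day 20 than on day 2. The shares of all genes moved in the same way. They were 16.7% in place of 3.58% higher for day 20 against day 8, and 5.81% in place of 17.0% lower for day 20 against day 2. With quantile normalization, the members' median minus that of all genes was 0.14 in place of 0.01 for day 20 against day 8, and 0.15 in place of 0.07 for day 20 against day 2. Members past 2-fold kept their sign under quantile normalization, cyclic loess and normexp, and spike-in scaling adds at most 0.71 and could not turn one. Differences of single genes often moved by more than their technical SD under quantile normalization, cyclic loess and spike-in scaling. No paired analysis was possible because each day has 1 array, and for the same reason no array could be left out. Related genes higher on day 20 than on day 8 numbered 3, but 0 with normexp and 6 without a filter on dim probes. The shares of all genes higher were 3.58%, 1.67% and 3.45% in these settings.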

Other observations

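Grouped by where the proteins act, a grouping chosen after the values were seen, the 7 cytosolic thiol enzymes (Txn1, Txnrd1, Prdx1, Prdx2, Prdx6, Glrx and Glrx3) lay between -1.30 and -0.12 on day 8 against day 2, with a median of -0.86 against -0.06 for all genes. The median was -0.63 with quantile normalization and -0.67 with cyclic loess, and Prdx2 turned to 0.01 and 0.07. The direction depends on who is counted: Srxn1, also cytosolic, was at 0.70, and Prdx5, counted as mitochondrial but also found in the cytosol, at 1.18. The 7 mitochondrial proteins (Txn2, Txnrd2, Prdx3, Prdx5, Sod2, Glrx2 and Glrx5) did not share a direction: 3 were above 0 and 4 below, from -1.28 for Glrx5 to 1.76 for Txnrd2, with a median of -0.14 (0.06 with cyclic loess).

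Of the 5 members that are selenoproteins (Txnrd1, Txnrd2, Gpx1, Gpx3 and Gpx4), 4 were measured, and on day 8 against day 2 they lay between -0.88 and 1.76, with 2 above 0 and 2 below. These groups were given no test.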
